A study of Rattus norvegicus with 66 samples.

Results

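The genes described here are 36 genes of the presynaptic vesicle release machinery, taken by symbol from a list of 36 names out of the 37777 genes of the count files. All 36 were found. Pclo and Unc13c each had 2 table entries, of which the one with more counts was used. All 36 passed the filter on low counts in each comparison, and together they took 0.684% to 1.06% of a pup's counts (median 0.856%).

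Neurons store transmitter in vesicles that are tethered, docked and primed at the active zone, a dense protein meshwork of the nerve terminal. Calcium entering with an action potential is sensed by synaptotagmins, and the SNARE proteins of vesicle and plasma membrane then pull both membranes together until they fuse. In the hippocampus of the newborn rat these terminals are still forming, and the transcripts of the machinery are made in the cell bodies of neurons, also of those whose axons end elsewhere.

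RNA-seq counts were available for dorsal hippocampus of 64 Long Evans rat pups, 41 males and 23 females, at postnatal day 6 (PND 6). The study asked whether 3 chemicals that disturb hormone systems change gene expression in the developing hippocampus. Aroclor 1254, a commercial mixture of polychlorinated biphenyls, and bisphenol A (BPA), a plastics monomer, were given to the dams in chow before mating and through pregnancy and lactation, each at 5 mg/kg (Aro5, BPA5) or 0.5 mg/kg (Aro0.5, BPA0.5). Chlorpyrifos, an organophosphate insecticide, was injected subcutaneously into the dams during pregnancy and lactation, at 3 mg/kg (CPF3) or 1 mg/kg (CPF1). Controls came from a feeding vehicle group (CONF) and an injection vehicle group (CONSC), which were pooled, as the study did. For CONSC the labels name saline, whereas the study's methods name DMSO, in which chlorpyrifos was dissolved, so that the vehicle behind the CPF comparisons is not settled. Male groups held 4 CONF, 5 CONSC, 6 Aro5, 7 BPA5, 7 CPF3, 4 Aro0.5, 4 BPA0.5 and 4 CPF1 pups, and female groups 5 CONF, 5 CONSC, 5 Aro5, 4 BPA5 and 4 CPF3 pups. Per the study's methods, the dissected piece held some of the laterally adjacent cortex, so that cells outside the hippocampus add to each level. In such bulk samples, fewer cells of a type and less RNA per cell cannot be told apart.

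Of the 8 genes listed for hippocampal pyramidal and granule cells, Prox1, Neurod6, Neurod2, Meis2, Bcl11b, Wfs1 and Zbtb20 were detected in all pups. Among them Zbtb20 was low (median 2.575 CPM), and Spink8 was near 0 (median 0.219 CPM). P-values measure the spread between pups, some of which share a litter, and between libraries where title forms were compared. The 66 libraries held 10644138 to 86206550 counts (median 20740650), and each of the 36 genes had at least 45 counts in every pup. Levels are given as CPM, counts scaled to a common library size, after TMM scaling over the 64 pups. Sample titles were spelled in 2 ways, called form A and form B here. In males, 9 of 10 control libraries and the low-dose libraries had form A, whereas all high-dose libraries had form B, so that form and high dose cannot be told apart there except through 1 control pup, CONF N2-2y, which had 1 library of each form. Among female control libraries, 5 carried form A and 6 carried form B, whereas in treated females the form could not be read. By their labels, 11 pups, among them 2 Aro5 males and 3 CONSC males, were killed outside the time window from 10.30 to 13.20 h. The female control CONSC 9-1x stood apart. It had the lowest level of 9 of the 36 genes and of 8 of the marker genes, among them Neurod6 (11.8 CPM, median 130 over all pups), a gene of pyramidal neurons.

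For 3 of the genes the bases just upstream of the transcription start are shown here because Vamp2 carried the 1 treatment call and Syn1 and Syp were among the genes that differed between the sexes in controls. RefSeq promoters of assembly GRCr8 were found for 29 of the 36 genes, with no entry for Syn3, Syngr1, Syngr3, Syt7, Snap25, Rims2 and Doc2b. The windows are the 250 bases before the start, written 5′ to 3′ on the gene's strand, at chr10:54292539-54292788 (plus strand) for Vamp2, chrX:3725495-3725744 (plus strand) for Syn1 and chrX:17536450-17536699 (minus strand) for Syp. Capitals mark the GC box (GGGCGG), the cyclic AMP response element (TGACGTCA) and the 2 parts of the RE1 element (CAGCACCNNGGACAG), each searched on both strands.
Vamp2: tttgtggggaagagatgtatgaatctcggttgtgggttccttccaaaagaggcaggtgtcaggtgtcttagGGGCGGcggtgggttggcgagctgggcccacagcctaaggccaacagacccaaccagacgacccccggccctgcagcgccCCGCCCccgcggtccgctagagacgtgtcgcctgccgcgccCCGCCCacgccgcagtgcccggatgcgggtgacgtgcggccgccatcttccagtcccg
Syn1: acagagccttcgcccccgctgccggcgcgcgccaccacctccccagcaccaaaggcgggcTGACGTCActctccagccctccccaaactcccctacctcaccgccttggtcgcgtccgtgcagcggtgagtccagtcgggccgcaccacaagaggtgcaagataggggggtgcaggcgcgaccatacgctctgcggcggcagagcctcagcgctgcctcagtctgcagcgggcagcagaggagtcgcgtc
Syp: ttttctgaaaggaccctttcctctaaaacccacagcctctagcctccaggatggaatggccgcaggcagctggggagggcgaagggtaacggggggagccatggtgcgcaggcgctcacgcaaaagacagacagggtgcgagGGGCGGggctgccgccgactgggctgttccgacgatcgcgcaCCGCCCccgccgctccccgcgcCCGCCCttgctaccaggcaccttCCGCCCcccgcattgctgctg

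A GC box stood in 20 of the 29 promoters (69%), against 32.4% of 27457 rat promoters of the same length. The 29 windows were also richer in G and C, with a median of 61.2% against 52%. Vamp2 held 3 GC boxes and Syp 4, whereas Syn1 held none and instead 1 of the 2 cyclic AMP response elements found among the 29 genes (6.9%, against 1.7% of all promoters); the other lay before Vamp1. The RE1 element was in none of the 29 windows and in 0.0328% of all. At so low a share, an exact match was hardly to be found in 29 windows in any case. Sites with other letters, cut by the window's edge or farther away were not searched, so this does not show that the genes lack the element.

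The mean over the 36 genes was computed for each pup on the log2 CPM scale. Control males averaged 6.79 ± 0.10 (SD, n = 9), with a lowest pup of 6.59, a median of 6.81 and a highest of 6.91. The high-dose male groups lay above that mean by 0.09 for Aro5, 0.07 for BPA5 and 0.03 for CPF3, all smaller than the spread between pups (pooled SD 0.09, 0.11 and 0.10). Low-dose males differed from control males by 0.04 for Aro0.5, -0.06 for BPA0.5 and -0.02 for CPF1. With the median over the 36 genes in place of the mean, the Aro0.5 difference was 0.26. Control females averaged 6.97 ± 0.21 (SD, n = 10), and treated females differed from them by 0.07 for Aro5, 0.13 for BPA5 and -0.02 for CPF3. Treated and control pups overlapped in each of these 9 comparisons.

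**Figure D1:**
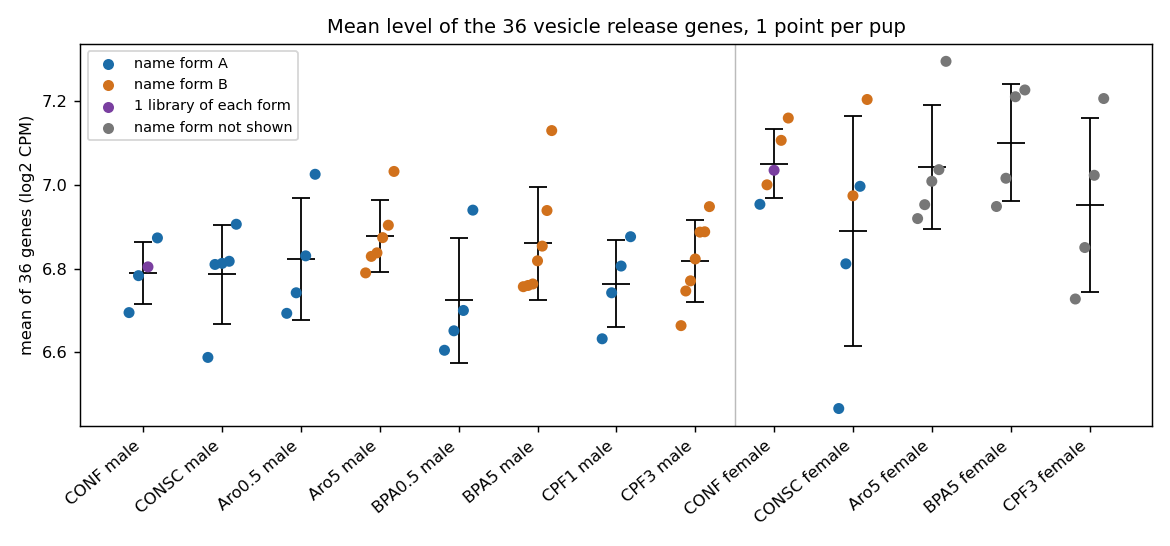
Mean of the 36 genes in log2 CPM (y axis) for each of the 13 groups (x axis), with 1 point per pup, coloured by the form of the sample title, and the mean ± SD as a black bar. Treated pups overlap the controls of their sex in each group, and the lowest point is the control female CONSC 9-1x at 6.47.

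In high-dose males no member of the machinery was called changed at an adjusted p under 0.05 with edgeR or with DESeq2. Of 16393 genes tested, 0.195% were called for Aro5, 0.189% for BPA5 and 0.159% for CPF3. At an unadjusted p under 0.05 there were 5 members for Aro5, where 11.8% of all genes reached it, 2 for BPA5 (background 9.1%) and 5 for CPF3 (background 12.6%). The shares of members, 13.9% for Aro5, 5.56% for BPA5 and 13.9% for CPF3, were thus near or below those of all genes. The median log2 fold change of the 36 genes was 0.04, 0.07 and 0.00, beside 0.00, 0.01 and 0.00 over all genes.

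By role, the 11 genes of the active zone and of vesicle priming lay mostly on one side of 0 in some comparisons only. The direction differed between these comparisons, and the group was not tested. In BPA5 males 11 of 11 lay above 0 (0.04 to 0.27 on the log2 scale), and 10 of 11 did so in Aro5 and in CPF3 males. In BPA0.5 males 10 of 11 lay below 0, and between CONSC and CONF females 11 of 11 did. Between the title forms in female controls 11 of 11 lay higher in form B. Elsewhere the 11 genes were divided, with 5 above and 6 below 0 in Aro0.5 males and 4 and 7 in CPF1 males. The split was 6 and 5 in Aro5 females, 7 and 4 in CPF3 females, and 5 and 6 between CONSC and CONF males. Rims1, the main RIM scaffold of the release site, had log2 fold changes of 0.02 for Aro5, 0.08 for BPA5 and 0.05 for CPF3. The 3 synapsins, which coat vesicles and hold them in reserve, ranged from 0.01 (Syn2) to 0.31 (Syn3) in Aro5 males and from -0.07 to 0.15 in CPF3 males. Among the 6 genes of the synaptotagmin and Doc2 families, Syt1, Syt2, Syt4, Syt7, Syt11 and Doc2b, the fold changes ran from -0.16 to 0.12 for Aro5. The 7 genes of the fusion step, Snap25, Stx1a, Vamp1, Vamp2, Cplx1, Cplx2 and Napb, ran from -0.12 to 0.08 for Aro5 and from -0.21 to 0.10 for CPF3. Slc17a7, which loads vesicles with glutamate, and Dnm1 and Amph, which retrieve vesicle membrane after fusion, stayed between -0.13 and 0.20 in all 3 high-dose male groups.

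The members with the smallest p in Aro5 males were Pclo, Erc2 and Rims2, which code for the active zone scaffolds piccolo and ELKS2 and for a RIM protein that binds calcium channels and Rab3. Pclo measured 35.7, 51.6, 65.2, 66.9, 76.8 and 76.9 CPM in the 6 Aro5 males, against 25.2 to 60.3 (median 42.7) in the 9 control males. Of the Aro5 males 4 of 6 lay above the highest control, and the other pair lay within the control range. Its mean was 62.2 ± 16.0 against 41.8 ± 11.4 CPM, a log2 change of 0.55 ± 0.17 (SE, adjusted p = 0.23).

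For Erc2 the Aro5 males measured 33.0, 56.8, 66.4, 74.5, 75.6 and 76.3 CPM, and control males 24.8 to 63.0 with a median of 46.2. Again 4 of 6 exceeded the highest control. The log2 fold change was 0.53 ± 0.18 (SE, adjusted p = 0.26).

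Rims2 measured 22.2, 28.9, 32.1, 35.1, 38.3 and 39.9 CPM in Aro5 males and 18.4 to 32.1 CPM (median 26.4) in control males. Only the highest 3 pups lay clear of the controls, and the log2 fold change was 0.29 ± 0.12 (SE, adjusted p = 0.31).

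In each of these 3 genes the 2 lowest Aro5 males were 108-1y and 117-4y, the pups killed at 15.45 and 9.45 h, outside the time window. Over the pups within the window, 4 Aro5 and 6 control males, all 3 genes were called, with 4.96% of all genes. Their log2 fold changes were 0.85 ± 0.20 for Pclo (SE, adjusted p = 0.028), 0.89 ± 0.20 for Erc2 (adjusted p = 0.026) and 0.50 ± 0.13 for Rims2 (adjusted p = 0.036). Of these Aro5 males, 120-1y and 120-2y share a litter. With 1 pup per litter and sex, at all times of day, 0 members were called for Aro5 males (0.206% of all genes). With the title form as a covariate, the log2 fold changes of Pclo and Erc2 were 0.16 and 0.23, with adjusted p near 1. In males this form term rests on 1 form B control library, that of N2-2y, which had the highest Pclo level of the control males and the second highest Erc2 level. Within that pup the form B library was lower than the form A library, by log2 differences of -0.22 for Pclo and -0.26 for Erc2. The 2 libraries labelled as the control female N4-3x went the other way, with form B higher by 0.21 and 0.33. Female control libraries of form B averaged 59.9 CPM for Pclo and 65.4 CPM for Erc2, against 43.0 and 44.3 CPM in form A. The 6 neocortex markers were higher in the group as well. Their median log2 fold change in Aro5 males was 0.64, with 6 of 6 above 0, and their mean ranged from 5.10 to 6.07 log2 CPM in Aro5 males and from 4.54 to 5.49 in control males, with none of the 6 at 0 in any pup. By pup, the marker means of the Aro5 males were 5.90 (108-1y), 5.55 (115-14y), 6.07 (116-6y), 5.62 (117-4y), 5.10 (120-1y) and 5.71 (120-2y). The part of these markers in the result was not tested. Leaving out 108-1y alone also gave a call for Pclo, with a log2 fold change of 0.67. Over the 29 fits that left out 1 pup, 25 to 176 of all genes were called for Aro5.

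**Figure D2:**
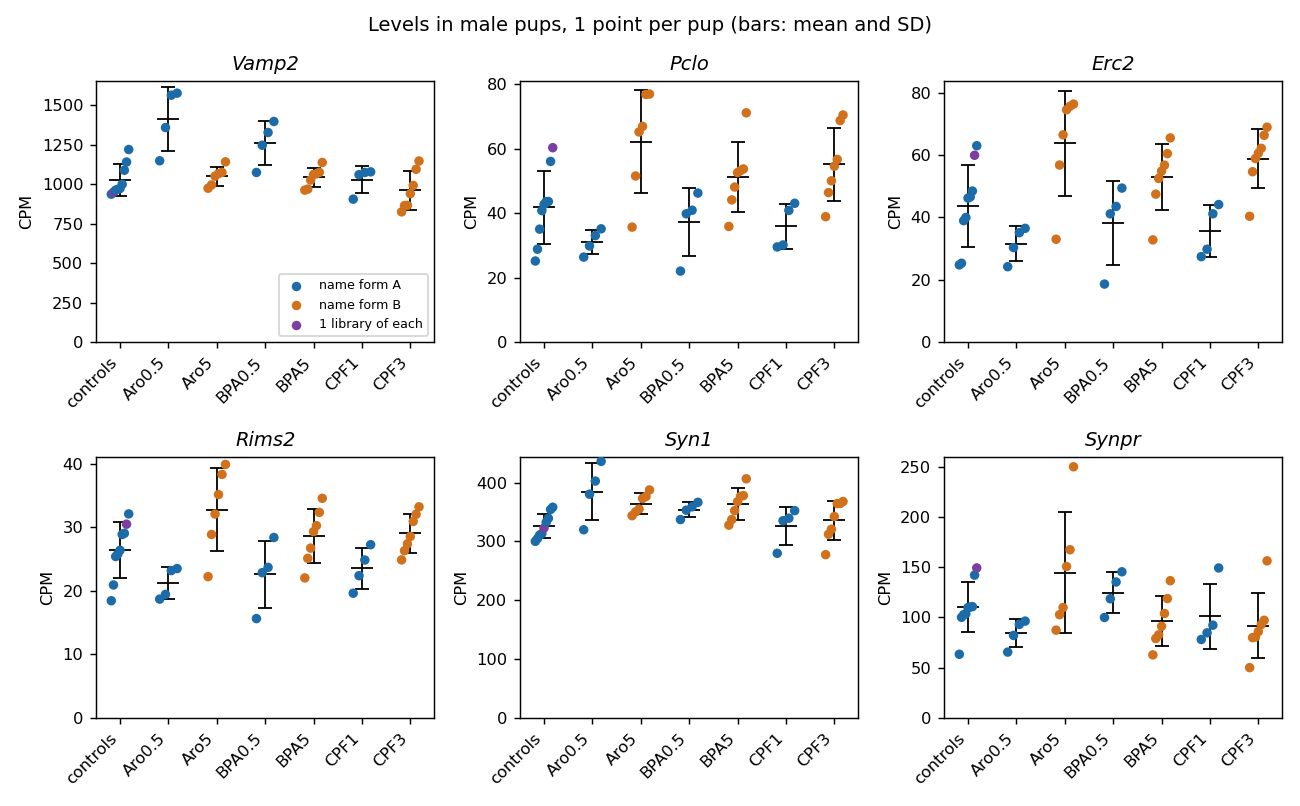
Levels in CPM (y axes, from 0) of Vamp2, Pclo, Erc2, Rims2, Syn1 and Synpr in male pups by group (x axes), with 1 point per pup coloured by title form and the mean ± SD as a black bar. Vamp2 is highest in Aro0.5 males, and Pclo, Erc2 and Rims2 each have 1 low Aro5 pup (108-1y) among higher ones.

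Syn1, Bsn and Rims3 had the smallest p in BPA5 males. Syn1, coding for synapsin 1, measured 328, 337, 352, 368, 377, 378 and 407 CPM there (lowest 328, median 368, highest 407), against 300.2 to 358 CPM (median 323) in control males. The upper 4 pups lay above all controls, and the log2 fold change was 0.14 ± 0.06 (SE, adjusted p = 0.51). Bsn, coding for the scaffold bassoon, ranged from 178 to 219 CPM (median 206) in BPA5 and from 166 to 199.7 CPM (median 181) in control males, a log2 change of 0.12 ± 0.05 (SE, adjusted p = 0.52).

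Rims3, a short relative of the RIM scaffolds, ranged from 18.3 to 36.6 CPM (median 24.3) in BPA5 males and from 16.5 to 24.3 CPM (median 21.3) in control males. Its log2 change was 0.25 ± 0.14 (SE, adjusted p = 0.58), and 0.13 without the pup 81-1y. Against the 1 form B control library, that of N2-2y (27.0 CPM, and 15.2 CPM in its form A library), the sign turned (-0.11).

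In CPF3 males the smallest p belonged to Unc13b, Sv2a and Erc2. Unc13b, which codes for the priming factor Munc13-2, ranged from 39.7 to 59.7 CPM (median 49.3) against 30.0 to 54.2 CPM (median 40.8) in controls. One pup, 35-5y, exceeded all controls, and the log2 fold change was 0.26 ± 0.10 (SE, adjusted p = 0.33). Sv2a, coding for a vesicle glycoprotein found on almost all synaptic vesicles, was lower, at 347 to 428 CPM (median 385) against 379 to 498 CPM (median 421), a log2 change of -0.16 ± 0.07 (SE, adjusted p = 0.36).

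Erc2 lay between 40.4 and 68.9 CPM (median 60.6) in CPF3 males, above the control median of 46.2 in 6 of 7 pups, with a log2 change of 0.40 ± 0.18 (SE, adjusted p = 0.37). The 3 high-dose groups share their 9 controls, so that like values of 1 gene in them are not separate observations. Of the neocortex markers 5 of 6 lay above 0 in CPF3 males (median log2 fold change 0.45) and in BPA5 males (0.24), while Lamp5 lay below, at -0.94 and -0.85. In CPF3 males 7 of 7 microglia, 8 of 8 oligodendrocyte lineage and 7 of 8 astrocyte markers lay below 0 (medians -0.28, -0.17 and -0.19). The part of all these markers in the values was not tested. Doc2b, a calcium sensor of asynchronous release, also had an unadjusted p under 0.05 in Aro5 and CPF3 males, with log2 fold changes of -0.16 in both.

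Compared directly, the 3 high-dose male groups gave no call among the members with edgeR or DESeq2, and none among all genes with edgeR (0% of 16393). At an unadjusted p under 0.05 there was 1 member between Aro5 and BPA5 (background 4.4%), 1 between Aro5 and CPF3 (background 4.17%) and 0 between BPA5 and CPF3 (background 2.7%). Both single genes were Synpr, which codes for synaptoporin, a vesicle protein typical of the mossy fibre terminals of dentate granule cells. It measured 87.4, 103, 110, 151, 167 and 249.9 CPM in Aro5 males, 62.8 to 137 CPM (median 91.2) in BPA5 and 50.1 to 156 CPM (median 86.1) in CPF3 males. The highest pup was 120-2y. The Aro5 pups at 151 and 167 CPM also lay above all BPA5 males, and the pup at 167 CPM above all CPF3 males. The remaining Aro5 pups lay within the range of both groups. The log2 fold change was 0.58 ± 0.23 (SE, adjusted p = 0.82) against BPA5 and 0.66 ± 0.23 (SE, adjusted p = 0.94) against CPF3. Without 120-2y these fold changes were 0.35 and 0.43. Syn1 had the smallest p between BPA5 and CPF3, at 328 to 407 against 278 to 368 CPM (log2 fold change 0.12 ± 0.06 (SE), adjusted p near 1).

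Of the low-dose groups, Aro0.5 males gave the 1 treatment call among the 36 genes. Vamp2, which codes for the vesicle SNARE synaptobrevin 2, measured 1149, 1359, 1564 and 1577 CPM in the 4 Aro0.5 males and 937 to 1220 CPM (median 974) in the 9 control males. Of the Aro0.5 pups 3 of 4 lay above all controls, and the remaining pup lay between the second highest and the highest control. Its mean was 1412 ± 202 against 1027 ± 99.5 CPM, and the log2 fold change of 0.47 ± 0.09 (SE) passed the test (adjusted p = 0.026). The background was 0.124% of 16139 genes.

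In BPA0.5 males Vamp2 had the smallest p of the 36 genes as well, at 1075, 1247, 1328 and 1398 CPM. There 3 of 4 pups again exceeded the highest control, but the log2 fold change of 0.29 ± 0.09 (SE) was not called (adjusted p = 0.41), nor was any other member with edgeR or DESeq2 (background 0.0434%). The Aro0.5 and BPA0.5 values share their controls. At the high doses Vamp2 ranged from 975 to 1142 CPM in Aro5 and from 963 to 1138 CPM in BPA5 males, within the control range.

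The Vamp2 call was lost (0 members) over pups within the time window (log2 fold change 0.43, adjusted p = 0.30), with CONF controls alone (0.45, adjusted p = 0.26), and without any 1 of 8 pups, namely the Aro0.5 pups 106-3y, 94-3y and 98-8y, the CONF pups N2-2y and N5-2y and the CONSC pups 11-4y, 13-1y and 6-5y. Across those that leave out 1 pup the log2 fold change ran from 0.40 to 0.56. With form A libraries only it was 0.47 (adjusted p = 0.042). Without the CONSC pup 8-4y, Syn3 was called beside Vamp2 (log2 fold change -0.59). Over the 21 fits that left out 1 pup, 0 to 322 of all genes were called for Aro0.5.

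Around Vamp2, 15 members had an unadjusted p under 0.05 in Aro0.5 males, 41.7% against 18.5% of all genes, and the values went both ways. All 7 genes of the fusion step lay above 0 (0.09 to 0.47 on the log2 scale), and so did Syn1 (0.25), Syngr3 (0.33), Syp (0.29), Slc17a7 (0.39) and Bsn (0.20), none of them called. Below 0 lay Syn3 (-0.56), Erc2 (-0.46), Pclo (-0.42), Amph (-0.38), Synpr (-0.38) and Rims2 (-0.30), also not called with edgeR. DESeq2 called Vamp2 and Syn3 (adjusted p = 0.035), with 1.67% of all genes. The median over the 36 was 0.12, beside 0.00 over all genes.

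Marker genes differed in the same pups, none of them called. The 6 neocortex markers had a median log2 fold change of -0.65 in Aro0.5 males with 6 of 6 below 0, and their mean spanned 4.32 to 5.06 log2 CPM against 4.54 to 5.49 in control males. The 5 thalamus markers had a median of 0.55, with means of 5.09 to 5.68 against 4.48 to 5.66, and the 6 interneuron markers a median of -0.41. The 9 general neuron markers tested had a median of 0.18, with 7 of 9 above 0 and means of 7.70 to 7.94 against 7.59 to 7.86, and the 4 choroid plexus markers tested a median of -0.56, with 4 of 4 below 0. None of the neocortex, thalamus and interneuron markers was at 0 in any pup. Their part in the Vamp2 result was not tested.

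For BPA0.5, 5 members had an unadjusted p under 0.05 (background 8.58%), namely Vamp2, Unc13c (0.35) and Snap25 (0.20) above and Amph (-0.45) and Unc13a (-0.39) below 0, and the median was -0.06. Without the BPA0.5 pup 75-1y, Unc13a was called (log2 fold change -0.60). Over the 21 fits that left out 1 pup, 0 to 31 of all genes were called for BPA0.5. For CPF1 the count was 0 called and 0 at an unadjusted p under 0.05, where all genes gave 0% and 2%. The member with the smallest p there was Erc2, at 27.4, 29.8, 41.2 and 44.1 CPM against the control median of 46.2 CPM, a log2 change of -0.29 ± 0.23 (SE, adjusted p near 1).

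**Figure D3:**
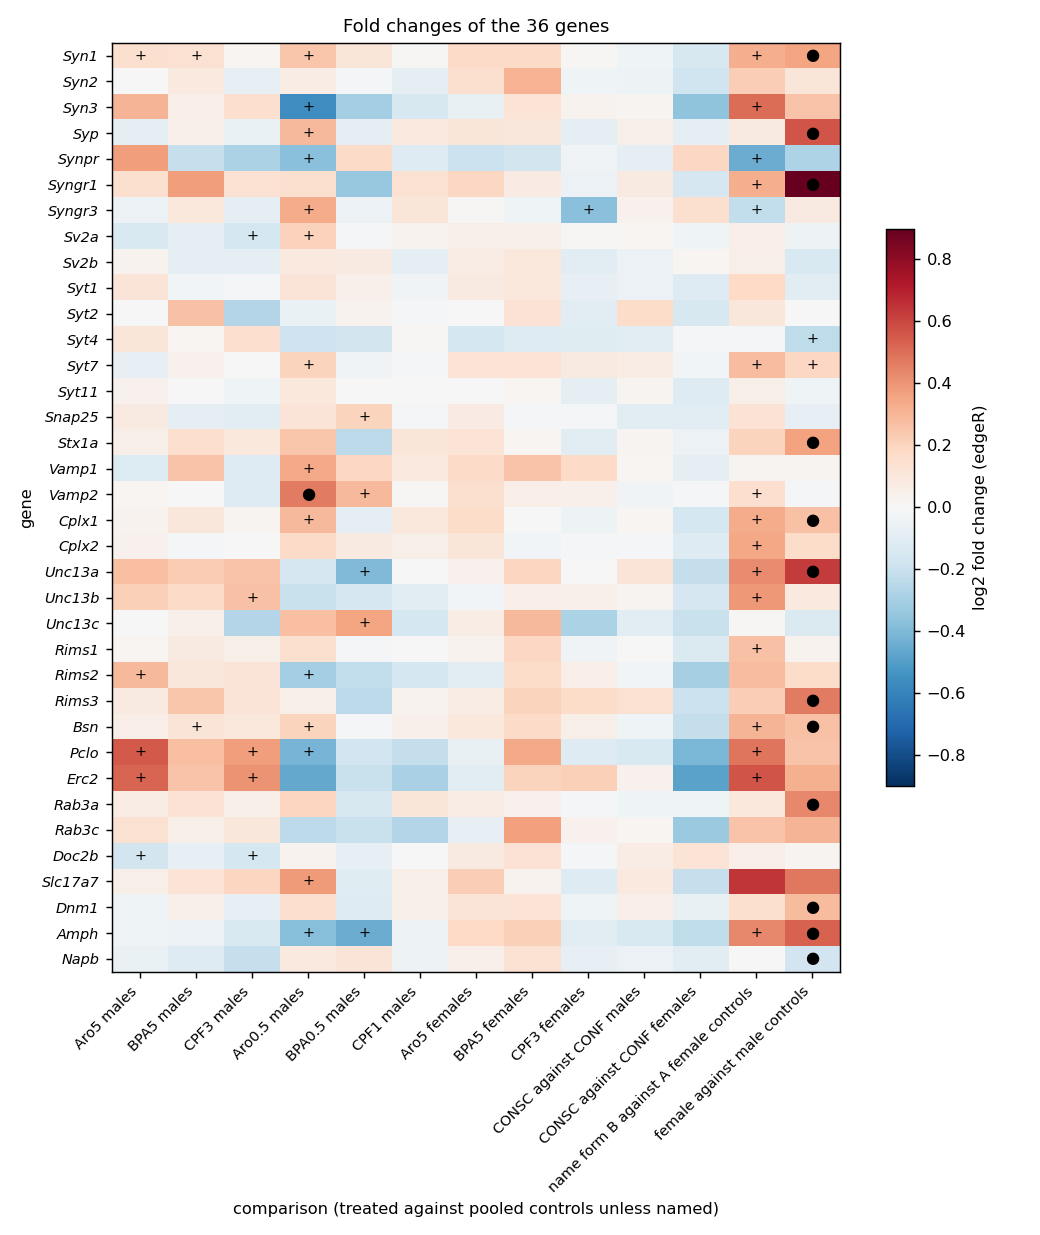
Log2 fold changes (colour, red above and blue below 0) of the 36 genes (rows) in 13 comparisons (columns), with a filled circle for an adjusted p under 0.05 and a plus for an unadjusted p under 0.05, both from edgeR. Of the 9 treatment columns, the Aro0.5 column holds the 1 circle (Vamp2), and the column of female against male controls holds 12.

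Treated females gave no call among the 36 genes with either tool, and none among 16992 genes with edgeR (0% for Aro5, BPA5 and CPF3 alike). At an unadjusted p under 0.05 the members numbered 0 for Aro5 (background 3.23%), 0 for BPA5 (background 4.08%) and 1 for CPF3 (background 8.79%). In BPA5 females 30 of 36 lay above 0, with a median log2 fold change of 0.12 beside 0.00 over all genes. That median was 0.06 both with controls of the same route and within the time window. In the same comparison the 4 choroid plexus markers tested had a median of -0.64, with 4 of 4 below 0, and the 5 thalamus markers a median of 0.32, and their part was not tested.

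The single CPF3 gene was Syngr3, coding for the vesicle protein synaptogyrin 3. It measured 84.1, 103, 144 and 169.5 CPM in CPF3 females and 131 to 198 CPM (median 164) in the 10 control females. The lower 2 pups, 43-3x and 38-5x, lay below all controls and the other 2 within their range (log2 fold change -0.38 ± 0.14 (SE), adjusted p = 0.46).

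In Aro5 females Syngr1, a relative of Syngr3, had the smallest p, at 58.7, 59.7, 64.6, 82.1 and 83.2 CPM against 42.9 to 76.4 CPM (median 61.9). The upper 2 pups exceeded all controls (log2 fold change 0.19 ± 0.11 (SE), adjusted p near 1). In BPA5 females it was Vamp1, the synaptobrevin of fast-firing neurons, at 40.5, 46.1, 46.2 and 66.7 CPM against 32.4 to 50.0 CPM (median 41.1). Only pup 79-4x lay above the controls (log2 fold change 0.26 ± 0.13 (SE), adjusted p = 0.93).

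Whether males and females responded differently was tested as an interaction, which gave no member for Aro5, BPA5 or CPF3 with edgeR or DESeq2 (background 0.0984%, 0.0405% and 0.0463% of 17282 genes). For Aro5, 4 members had an unadjusted p under 0.05 (background 8.92%), Pclo (-0.64), Erc2 (-0.64) and Rims2 (-0.41) with a lower response in females and Doc2b (0.23) with a higher one. Over pups within the time window Erc2 (-1.10 ± 0.32 (SE), adjusted p = 0.047) and Rims2 (-0.73 ± 0.21 (SE), adjusted p = 0.043) were called, with 3.49% of all genes. The Aro5 pups of that fit include littermates of 1 sex. With 1 pup per litter and sex, at all times of day, the Aro5 interaction gave 0 members (0.0521% of all genes). For BPA5 and CPF3 the number at an unadjusted p under 0.05 was 0, with 2.79% and 5.6% of all genes.

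Between the vehicle groups no member was called, by edgeR or by DESeq2. Between CONSC and CONF males 0 members were called (background 0.013%) and 0 had an unadjusted p under 0.05 (background 0.988%). Between CONSC and CONF females the numbers were 0 (background 0%) and 0 (background 4.29%), although 32 of 36 genes lay lower in CONSC, with a median of -0.12. The pup 9-1x is 1 of the 5 CONSC females. Its Slc17a7 level of 26.03 CPM compared with a median of 251 CPM in control females, and with up to 437 CPM in the Aro5 female 117-6x.

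Most calls among the 36 genes came from female against male controls. There 12 were called with edgeR (33.3%), close to the background of 30.9% of 15763 genes, and 13 with DESeq2, where the background was 32.5%. Of the 12, 11 were higher in females (background 17.8% higher) and 1 lower (background 13.1% lower). Higher were the vesicle proteins Syngr1, Syp and Syn1, the fusion genes Stx1a and Cplx1, the priming and active zone genes Unc13a, Rims3, Bsn and Rab3a, and the recycling genes Dnm1 and Amph. Their log2 fold changes ran from 0.26 (Bsn) to 0.90 (Syngr1). The gene lower in females was Napb, coding for the SNARE disassembly factor beta-SNAP (-0.17 ± 0.06 (SE), adjusted p = 0.036).

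Syngr1 ranged from 24.1 to 37.8 CPM (median 33.4) in the 9 control males and from 42.9 to 76.4 CPM (median 61.9) in the 10 control females, without overlap. The log2 fold change was 0.90 ± 0.09 (SE, adjusted p = 1.58e-07). Rab3a, coding for the small GTPase that carries vesicles to RIM, ranged from 243 to 355 CPM in males and from 365 to 440.2 CPM in females, also without overlap (0.43 ± 0.06 (SE), adjusted p = 4.5e-06). Syp, coding for synaptophysin, the most abundant vesicle membrane protein, spanned 143 to 233 CPM in males and 215 to 291 CPM in females and overlapped (0.57 ± 0.08 (SE), adjusted p = 5.77e-06). Unc13a, coding for the main priming factor Munc13-1, overlapped as well, at 51.8 to 75.4 and 57.8 to 134 CPM (0.63 ± 0.11 (SE), adjusted p = 0.00019).

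Without the pup 9-1x the number was 15. Over the 19 fits that left out 1 control pup it ran from 10 to 15, while 4258 to 5692 of all genes were called. The neocortex markers had a median log2 fold change of 0.37 between the sexes, with 1 of 6 called (16.7%). Of the oligodendrocyte lineage markers 5 of 8 were called (62.5%), 3 higher and 2 lower in females. Of the neuron markers tested 3 of 9 were called (33.3%), and the 5 markers of dividing cells all lay below 0 (median -0.18). The part of these markers in the result was not tested.

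The title form moved with the difference between the sexes, since 9 of the 10 control male libraries had form A and 6 of the 11 control female libraries form B. In form A libraries alone, 9 male against 5 female, 4 members were called with 11.7% of all genes, namely Syngr1 (0.78 ± 0.15 (SE), adjusted p = 0.0018), Syp (0.54 ± 0.11, adjusted p = 0.0038), Rab3a (0.40 ± 0.09, adjusted p = 0.0055) and Unc13a (0.44 ± 0.12, adjusted p = 0.025). Syngr1 measured 16.3 to 38.3 CPM in the form A male libraries and 43.5 to 60.0 CPM in the form A female libraries, which did not overlap. Over all 36 genes, the median log2 fold change between the sexes was 0.16 in the comparison of all control pups. It was 0.00 in form A libraries alone and 0.05 with the form as a covariate. With the form as a covariate 7 members were called, with 18.9% of all genes. The 2 libraries of the control male N2-2y also differed in several of these genes. From form A to form B, Syngr1 went from 279 to 759 counts, 1.36 higher on the log2 CPM scale, Rims3 was higher by 0.83, Stx1a by 0.70, Unc13a by 0.63 and Rab3a by 0.45, and Napb was lower by a log2 difference of -0.36. Syn1 differed little (0.10), and Amph was lower in form B (-0.28). The 2 libraries labelled as the control female N4-3x share litter and pup number, but their labels give different times (12.09 and 11.55 h), and they were summed as 1 pup. They differed less, by 0.11 for Syngr1 and 0.11 for Unc13a. The litter as a replicate block left 8 members called between the sexes, with 27.1% of all genes, Syngr1 with a log2 fold change of 0.90.

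**Figure D4:**
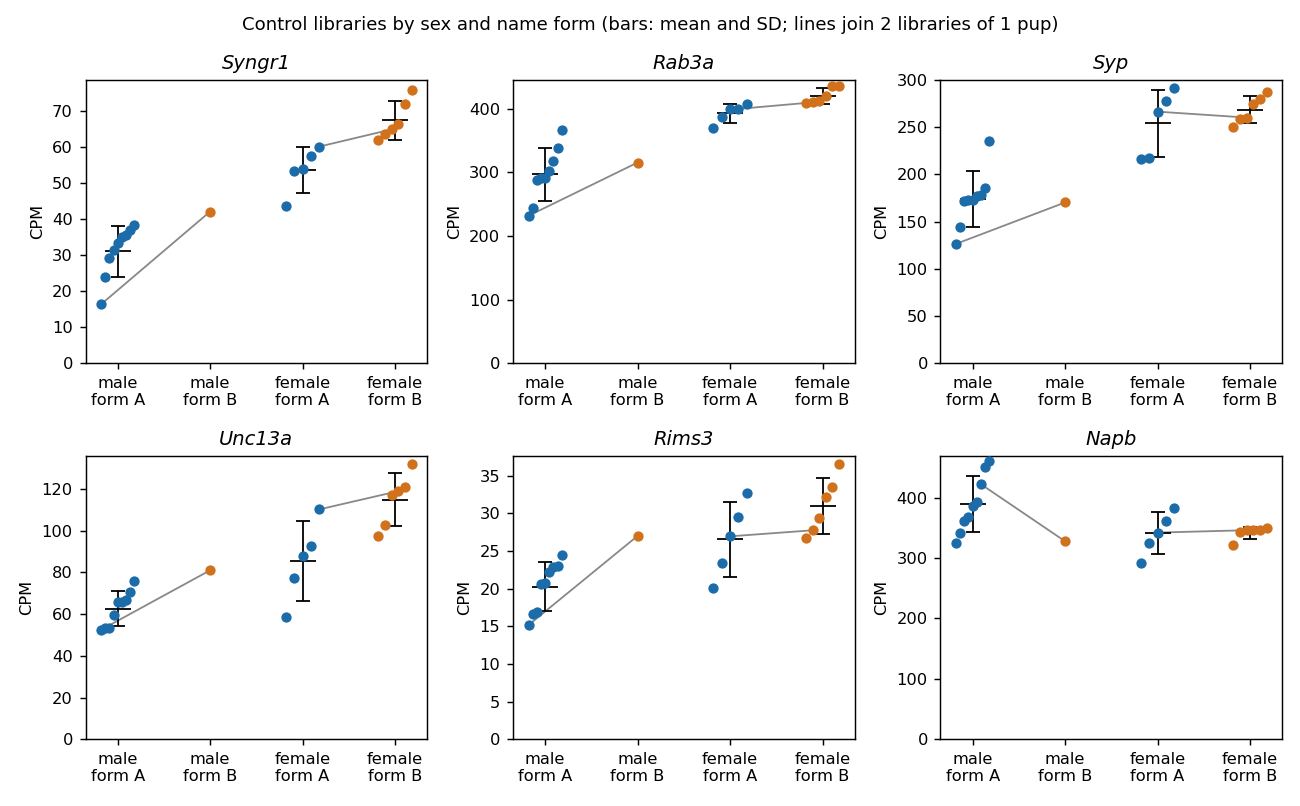
Levels in CPM (y axes, from 0) of Syngr1, Rab3a, Syp, Unc13a, Rims3 and Napb in the 21 control libraries by sex and title form (x axes), with 1 point per library, the mean ± SD as a black bar where there are 2 or more, and grey lines joining the 2 libraries of 1 pup. Form A females lie above form A males for Syngr1 and Rab3a without overlap, and the form B library of the male N2-2y lies above its form A library for Syngr1, Rab3a, Syp, Unc13a and Rims3.

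Among female controls, form B against form A libraries gave 0 called members with edgeR (background 1.43% of 16577 genes) and 6 with DESeq2, namely Syn1, Syngr1, Vamp2, Cplx1, Cplx2 and Unc13a (5.18% of all genes). At an unadjusted p under 0.05 there were 16 members (44.4%, background 18.7%), and 33 of 36 lay higher in form B, with a median of 0.21 beside -0.01 over all genes. Libraries were not summed here, and the pup N4-3x had a library in each form, which were not paired. Without the pup N4-3x edgeR called 3 members (Syn1, Syngr1 and Bsn), and without 9-1x it called Syn1. Over the 10 fits that left out 1 pup, 64 to 597 of all genes were called. The neocortex markers had a median log2 difference of 0.64 between the forms.

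Within groups the genes differed in how much they varied between pups. The SD of the deviations from the group mean was largest for Slc17a7 (0.54 on the log2 CPM scale), Syt2 (0.40), Synpr (0.38), Syngr1 (0.37) and Erc2 (0.36) and smallest for Syt11 (0.10), Doc2b (0.12), Sv2a (0.13) and Syt7 (0.13). Syt2 and Vamp1, both typical of fast-firing neurons, were each highest in the BPA5 male 81-1y, at 23.7 CPM for Syt2 (group median 5.02) and 118 CPM for Vamp1.

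Deviations of different genes went together in sets. Over the 64 pups, as a description of libraries that share depth, dissection and title form, the median Pearson correlation of the 630 gene pairs was 0.35, with 516 pairs above 0. The most alike were Dnm1 and Sv2a (r = 0.92, Spearman's rho = 0.90), with Syp close to both. A second set joined Pclo, Erc2 and Rims2 (Pclo with Erc2 r = 0.88, rho = 0.83), with Rab3c, Syn3 and Unc13b nearby, and Pclo was least like Rab3a (r = -0.325). Syngr1 was most like Stx1a (r = 0.86), Syn1 most like Vamp2 (r = 0.85), Slc17a7 most like Cplx2 (r = 0.84) and Sv2b most like Syt1 (r = 0.86). Synpr had no r above 0.34 (Snap25, 0.439 without the pup 9-1x), and was the least like gene for 21 of the others. Without the pup 9-1x the Pclo and Erc2 value was 0.87 and that of Dnm1 and Sv2a 0.92 (0.915).

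**Figure D5:**
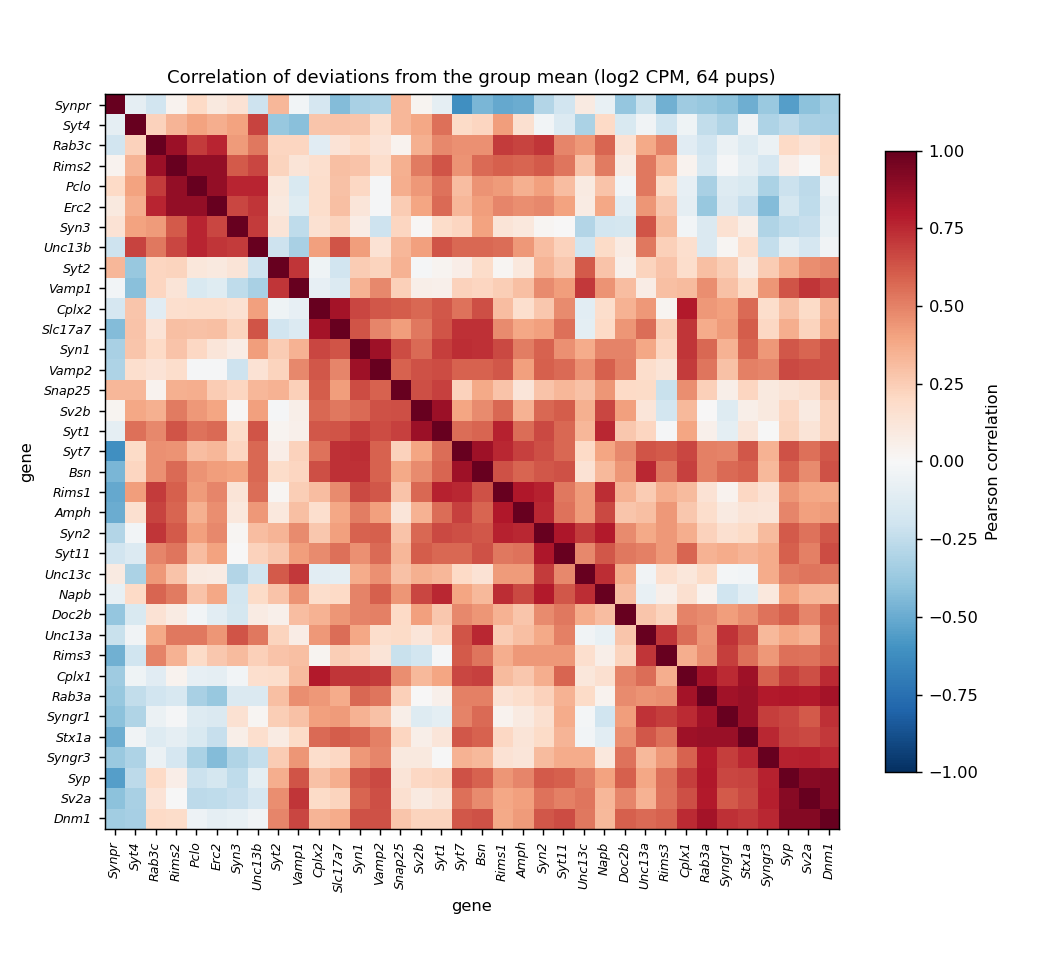
Pearson correlation (colour, from -1 in blue to 1 in red) between the 36 genes (both axes, ordered by average-linkage clustering) of the deviations of log2 CPM from the group mean over 64 pups. A block of Rab3c, Rims2, Pclo, Erc2, Syn3 and Unc13b and a block from Cplx1 to Dnm1 stand out, and Synpr is negative with most genes.

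A second list of 60 presynaptic genes that are not members, of which 58 were measured, held 0 called genes in each treatment comparison with edgeR. At an unadjusted p under 0.05 it held 3 genes for Aro5, 5 for BPA5 and 8 for CPF3 in high-dose males and 16 for Aro0.5. These are 5.17%, 8.62%, 13.8% and 27.6% of the list, beside 11.8%, 9.1%, 12.6% and 18.5% of all genes. In high-dose males its smallest p values belonged to Stxbp5 (log2 fold change 0.24 ± 0.08 (SE)), coding for tomosyn, and Synj1 (0.29 ± 0.12), coding for the lipid phosphatase synaptojanin 1, in Aro5, and to Scamp1 (-0.16 ± 0.05 in both) and Dnajc5 (-0.11 ± 0.04 and -0.12 ± 0.04), coding for the vesicle chaperone CSP, in BPA5 and CPF3. Between female and male controls 24 of the 58 were called (41.4%, background 30.9%), from Atp6v1b2 (-0.29), a subunit of the vesicle proton pump, to Sncb (0.72), coding for beta-synuclein.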

How the data were processed

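Dorsal hippocampus of rat pups was profiled by stranded, poly(A)-selected RNA-seq. The deposited values are raw counts per gene that the authors made, and the submitters' processing notes name STAR, featureCounts, kallisto and Rnor_6.0, without saying which tool gave which step. The 2 libraries of 1 pup were summed, which turned 66 libraries into 64 pups. Depth was 10644138 to 86206550 counts, and each p rests on the spread between pups rather than on counting error.

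Comparisons were made with edgeR 4.0.16 (quasi-likelihood test, TMM scaling, filterByExpr, Benjamini-Hochberg adjustment over all genes tested, threshold 0.05) in R 4.3.3. Fits held control and high-dose males, control and low-dose males, all females, or controls alone. The sexes' responses were compared by an interaction. Log2 CPM used a prior count of 2. Alternatives were DESeq2 1.42.0, its size factors in edgeR, no filter, at least 10 counts in every pup, a prior count of 0.5, pups within 10.30 to 13.20 h, 1 pup per litter and sex, libraries kept separate, controls of the same route, title form as a covariate or held fixed, the litter as a block in limma 3.58.1, and leaving out each pup. The edgeR and DESeq2 fits were tested on simulated data.

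The 36 genes, the 60 other presynaptic genes (58 found, Tspoap1 and Rab3gap1 not used here) and the marker lists were chosen with earlier results of these data known. Genes given pup by pup were those called in a treatment comparison, the 3 with the smallest p in each high-dose male comparison and the 1 with the smallest p in each other treatment comparison, plus the leading genes between the sexes. Genes singled out by the time window, the title form or 1 pup were chosen after their values were seen.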

Additional observations from a re-analysis of the deposited data

Results flagged for a closer look

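Groups of 4 to 10 pups were searched for a pup far from the others in the module mean and in the genes given pup by pup. Of 62 sets of values tested, 5 held one, where chance alone marks about 1 in 20, but 4 of the 5 are the same pup in values that go together. In female controls, CONSC 9-1x lay far below the other 9 pups in the mean over the 36 genes (6.47 log2 CPM) and in Syn1 (289 CPM), Stx1a (157 CPM) and Cplx1 (167 CPM). Among Aro5 males, 108-1y lay far below the others in Erc2 (33 CPM).

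Of 63 gene and treatment pairs examined in both sexes, none had all males moving one way and all females the other. The second table entry named Pclo, which the comparisons did not use, held 3100 counts over the 64 pups.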

How the results depend on the processing

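Most numbers of members called were 0 and stayed 0, which says nothing of stability. Over pups within the time window 3 members were called for Aro5 males, 0 for Aro0.5 males and 2 in the interaction of sex and Aro5. DESeq2 called 2 members for Aro0.5 males and 6 between title forms in female controls. With controls of the same route the Aro0.5 number was 0. Between the sexes the number was 7 with the title form as a covariate, an alternative chosen after seeing the data, and 4 in form A libraries. By the median over the 36 genes instead of the mean, the Aro0.5 difference was 0.26. Rims3 in BPA5 males turned to -0.11 with the title form as a covariate and in form B libraries, which are 1 contrast, since both set BPA5 against the 1 form B control library. Leaving out 1 pup gave 0 to 1 members for Aro5 males, 0 to 2 for Aro0.5 males, 0 to 1 for BPA0.5 males, 10 to 15 between the sexes and 0 to 3 between title forms. In the same order, the calls over all genes numbered 25 to 176, 0 to 322, 0 to 31, 4258 to 5692 and 64 to 597. Over all genes, the Aro5 male count of 32 became 101 with DESeq2, 818 within the time window and 0 with the title form as a covariate, and the Aro0.5 count of 20 became 269 with DESeq2 and 0 within the window. The cause of these shifts was not tested. With the litter as a replicate block (limma-voom), 8 members were called between the sexes and 0 in each interaction, with consensus correlations of -0.17 and -0.0061. No paired analysis was possible for the treatment comparisons because dams were treated, so that each litter lies within 1 treatment. The litter as a block was not run in the fits of 1 sex, where at most 1 litter held 2 pups.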
